A study of Mus musculus with 15 samples.

Results

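The mitochondrial ribosomal protein genes were the 76 genes of 17090 in the count table whose symbol was Mrpl or Mrps followed by a number and at most 1 letter. This name rule used no expression value, but it was set with earlier results of these data known. There were 47 Mrpl and 29 Mrps symbols. Counts were read from the transcript that the authors had marked for each gene, and for the 7 members with more than 1 transcript the marked one also had the largest total. No member shared identical counts with another gene. Mrpl57 and Mrpl58 carry the older symbols Mrp63 and Ict1 in the table and so fall outside the name rule.

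RNA was sequenced from enteric neural crest-derived cells (ENCDC), the precursors of the enteric nervous system, sorted from single mouse organs of mixed background by a fluorescent reporter. At E11.5, TdTomato+ stomach ENCDC came from 4 RarαDN LoxP/+; Wnt1Cre; ROSA26TdTomato embryos and from 4 Wnt1Cre; ROSA26TdTomato controls. At E13.5, EYFP+ colon ENCDC came from 3 RarαDN LoxP/+; RETCreERT2-EYFPTandem embryos and from 4 RETCreERT2-EYFPTandem controls, all after tamoxifen at E10.5. RarαDN is a dominant-negative retinoic acid receptor α that a Cre recombinase switches on from the Rosa26 locus. Wnt1Cre acts in neural crest before migration, whereas RETCreERT2 is an inducible Cre in the Ret locus and marks cells that already express Ret, including some blood-lineage cells. No control carried the RarαDN allele. Age, organ, driver, reporter and tamoxifen changed together between the experiments, so their parts in any difference between the ages cannot be told apart.

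Mitochondrial ribosomes translate the few proteins encoded by mitochondrial DNA, all of them subunits of the oxidative phosphorylation chain. Their ribosomal RNAs come from mitochondrial DNA, but every ribosomal protein is encoded in the nucleus, made in the cytosol and imported. Some of these proteins descend from bacterial ribosomal proteins and others joined the ribosome after the bacterial ancestor of mitochondria was taken up. The genes are expressed in nearly all cells, and their promoters are known for sites of NRF1 and ETS-family factors such as GABP.

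The transcripts of the members were short. Their median transcript length was 1224.5 bases, against 2741.5 bases for all genes with a length, and their median coding length was 568.5 bases, against 1350.0 bases. Lengths were those of GENCODE transcripts matched by RefSeq accession, whose ends can be longer than those of the RefSeq models that were counted. The shortest member was Mrps21 with 405 bases and the longest Mrpl17 with 7300 bases, of which 528 were coding.

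Promoters of 67 of the 76 members were found in the RefSeq table of GRCm38.p6 and were searched, on both strands, in the 250 bases upstream of the gene start. The NRF1 motif (GCGCA, any base, then GCGC) was present in 9 of 67 member promoters (13.4%), against 4.23% of 27025 promoters of all genes. The ETS motif ACTTCCGG was present in 10 of 67 (14.9%), against 3.23% of all promoters. The YY1 motif (AAGATGG followed by CGG) was found upstream of Mrps11 alone among the members (1.49%), against 0.359% of all promoters. A direct repeat of the retinoic acid receptor recognition letters, AGGTCA, spaced by any 5 bases, was found in 0 of 67 member promoters and in 0.0111% of all promoters. The windows below, each 60 bases and 5′ to 3′ on the strand of the gene, show the motif in capitals, first NRF1 and then ETS, for members whose RNA fell at E13.5 and, last in each set, for one that did not pass the test there. The capitals hold the motif as read on either strand, and the coordinates are of GRCm38.p6.

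Mrps21 (NRF1, minus strand, chr3:95871571-95871630): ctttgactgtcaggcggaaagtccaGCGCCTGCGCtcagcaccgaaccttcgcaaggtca

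Mrpl12 (NRF1, plus strand, chr11:120484531-120484590): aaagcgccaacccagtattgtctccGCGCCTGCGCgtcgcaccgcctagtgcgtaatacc

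Mrpl30 (NRF1, plus strand, chr1:37890369-37890428): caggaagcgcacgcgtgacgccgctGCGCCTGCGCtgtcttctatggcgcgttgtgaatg

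Mrpl44 (NRF1, plus strand, chr1:79775958-79776017): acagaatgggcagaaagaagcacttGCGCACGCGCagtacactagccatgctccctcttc

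Mrps18c (ETS, plus strand, chr5:100798577-100798636): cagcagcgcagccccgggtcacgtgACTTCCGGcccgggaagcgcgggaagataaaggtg

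Mrpl27 (ETS, plus strand, chr11:94653711-94653770): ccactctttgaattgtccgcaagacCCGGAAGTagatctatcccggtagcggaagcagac

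Mrps27 (ETS, plus strand, chr13:99344712-99344771): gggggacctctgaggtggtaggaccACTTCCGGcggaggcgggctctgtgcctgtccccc

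Of the 23 members with a promoter that fell at E13.5, 5 (21.7%) had the NRF1 motif and 4 (17.4%) the ETS motif. Of the 44 that did not pass, 4 (9.09%) had the NRF1 motif and 6 (13.6%) the ETS motif. These shares describe letters in a window and were not tested against each other.

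The libraries held 6065029 to 12121327 counts and at least 7 of 8 ENCDC marker genes were detected in each. In E11.5 RarαDN libraries the summed ENCDC markers were 1524 to 1837 CPM (counts scaled to library size), against 3460 to 4712 CPM in controls, and Ret had 131, 235, 0.613 and 0.117 CPM in the 4 RarαDN libraries, against 442 to 1811 CPM in controls. Summed macrophage markers were 70.7 to 269 CPM in E11.5 RarαDN libraries and 27 to 40.1 CPM in controls. At E13.5, hemoglobin genes summed to 96.9, 0.450 and 8.71 CPM in RarαDN libraries, against 25.9, 834, 5066 and 58.5 CPM in controls, so control libraries 2 and 3 stood apart. Summed endothelial markers were 40.2 to 48.7 CPM in E13.5 RarαDN libraries and 74.6 to 130 CPM in controls, and mesenchymal and smooth muscle markers were 68.4 to 144 CPM in RarαDN libraries and 144 to 322 CPM in controls, without overlap. The summed ENCDC markers at E13.5 were 2704 to 3010 CPM in RarαDN libraries and 1805 to 2483 CPM in controls. Summed epithelial markers at E11.5 were 13.8 to 33.6 CPM in RarαDN libraries and 39.9 to 94.1 CPM in controls. The number of genes detected was 12510 to 13221 in RarαDN libraries and 14559 to 14870 in controls at E11.5, and 13536 to 13900 in RarαDN libraries and 12354 to 13050 in controls at E13.5. The part of these other cells and of the number of genes detected in the values that follow was not tested, beyond the fits without the hemoglobin-rich controls given below. In bulk RNA, fewer cells of a type and less RNA per cell cannot be told apart, and because nothing in the labels ties the libraries to litters, p-values measure the spread between these single-organ libraries.

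CPM, the counts per gene divided by library size, were scaled by TMM within each age. At E11.5 the members summed to 10955, 6688, 6892 and 7166 CPM in RarαDN-expressing ENCDC, against 7533, 9614, 6251 and 5652 CPM in control ENCDC. The groups overlapped, and RarαDN library 1 lay above the other 7 libraries. At E13.5 the members summed to 9692, 9975 and 8720 CPM in RarαDN-expressing ENCDC, against 12719, 15751, 15295 and 11841 CPM in control ENCDC. All RarαDN libraries lay below all controls there, and the hemoglobin-rich controls 2 and 3 were the highest. As a share of all counts, the members took 0.784% ± 0.151 in RarαDN and 0.723% ± 0.166 in control ENCDC at E11.5 (SD, n = 4 each). At E13.5 they took 0.977% ± 0.0480 (SD, n = 3) in RarαDN and 1.35% ± 0.141 (SD, n = 4) in control ENCDC.

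**Figure D1:**
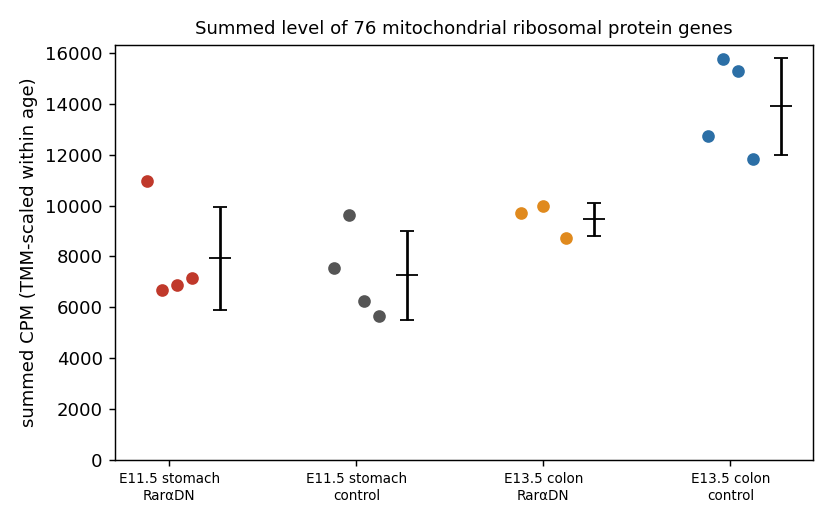
Summed CPM of the 76 mitochondrial ribosomal protein genes (vertical axis, from 0, TMM-scaled within age) in each library of the 4 groups on the horizontal axis; points are libraries and the bars beside them mean ± SD. The 3 E13.5 RarαDN libraries lie between 8720 and 9975 CPM, below the 4 controls at 11841 to 15751 CPM, while the E11.5 groups overlap.

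Levels differed widely between members. Per kilobase of transcript and averaged over the 4 groups, the median member had 84.8 CPM per kb, with quartiles of 44.6 and 146 CPM per kb. Mrpl28, Mrpl42 and Mrpl20, all large-subunit proteins, were the most abundant, with 371, 362 and 314 CPM per kb. The least abundant were Mrps5, a small-subunit protein at the mRNA entry side, with 15.8 CPM per kb, Mrps36 with 2.17 CPM per kb and Mrpl23, a protein near the exit of the nascent-chain tunnel, with 1.76 CPM per kb. Mrps36 and Mrpl23 held only 0 to 24 and 4 to 21 counts per library. The 0 for Mrps36 was in RarαDN library 3 at E11.5 and allows up to 0.467 CPM, a limit of 3 counts that covers counting error only. The other 74 members held at least 61 counts in every library.

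At E11.5 the comparison asked whether stomach ENCDC expressing RarαDN from the Wnt1Cre stage differed from control in these genes. None of the 75 members that passed the filter on low counts (Mrpl23 did not) rose or fell in edgeR's quasi-likelihood test at an adjusted p below 0.05, whereas 6% of 12427 genes tested did so, 3.07% higher and 2.93% lower. Without adjustment 4 members had a p below 0.05, as did 2407 of the 12427 genes tested. DESeq2 called 1 member, Mrpl38, and 11% of all genes, and limma-voom called 0 members and 7.08% of all genes. The median log2 fold change (log2FC, RarαDN over control) of the members was 0.15, with 51 positive and 24 negative values, against a median of -0.05 for all genes, of which 46.7% were positive and 53.3% negative. The median was 0.01 without RarαDN library 1, with 38 positive and 37 negative values, and 0.36 without control library 2. Log2 fold changes spanned -0.48 to 0.91, with a median SE of 0.27.

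Mrps21, the mitochondrial counterpart of a bacterial small-subunit protein, had the largest positive log2 fold change at E11.5. It had 52.3, 47.3, 28.1 and 32.5 CPM in RarαDN-expressing ENCDC, against 23, 25.9, 20.4 and 16.1 CPM in control ENCDC. The groups did not overlap. This held for 1 member in this direction and for 0 in the other, whereas 6.71% and 8.96% of all genes had such groups. The edgeR test of Mrps21 did not pass (log2FC 0.91, SE 0.31, edgeR adjusted p = 0.127; 0.20 and adjusted p = 0.718 after the trend with length was removed). Mrpl38, a large-subunit protein without bacterial homolog, had the lowest adjusted p, with 153, 129, 85.4 and 143 CPM in RarαDN and 86.5, 85.7, 64.1 and 57.2 CPM in control ENCDC. Its groups overlapped by library 3 of the RarαDN embryos (log2FC 0.80, SE 0.24, edgeR adjusted p = 0.087; without that library 0.99, adjusted p = 0.039). Mrpl44, a large-subunit protein related to RNase III, had 241, 92.2, 153 and 154 CPM in RarαDN and 110, 137, 95.0 and 84.8 CPM in control ENCDC, so its groups overlapped widely (log2FC 0.58, SE 0.29, edgeR adjusted p = 0.296).

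The other members with large positive values at E11.5 were also not called. Mrpl54 had a log2FC of 0.67 (edgeR adjusted p = 0.231), Mrps36 of 0.63 (adjusted p = 0.810) and Mrps16 of 0.61 (adjusted p = 0.206). The most negative values belonged to Mrps9, a small-subunit protein with a bacterial counterpart, at -0.48 (SE 0.33, edgeR adjusted p = 0.483). Its CPM were 81.9, 48.9, 29.4 and 38.2 in RarαDN and 78.7, 86.8, 59.0 and 52.2 in control ENCDC, with RarαDN library 1 among the controls. Mrpl3, Mrpl49, Mrpl50, Mrpl1 and Mrps27 had log2 fold changes from -0.38 to -0.30, with edgeR adjusted p from 0.380 to 0.556.

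At E13.5 the comparison asked the same of colon ENCDC that expressed RarαDN from E10.5. Here 26 of 76 members fell and 0 rose (edgeR adjusted p below 0.05), and 50 did not pass. Of all 12085 genes tested, 8.33% were called, 5.55% lower and 2.78% higher. The median log2 fold change of the members was -0.54, with 70 negative and 6 positive values, against 0.06 for all genes, of which 46.5% were negative and 53.5% positive. In 47 members every RarαDN library lay below every control, and in 1 every one lay above, against 13.3% and 12.7% of all genes. The log2 fold changes of the 26 fallen members spanned -1.38 to -0.67, with edgeR adjusted p from 0.009 to 0.047. The count of called members was 0 without RarαDN library 1 and 0 without library 2, 7 without library 3, 17 and 13 without control 2 or 3, and 6 without both of these controls, when the median was -0.37. Of all genes, 0.199%, 0.352% and 2.59% were called without RarαDN library 1, 2 or 3, against 8.33% with all libraries. The share was 5.69% and 3.88% without control 2 or 3, and 1.7% without both. Calls were thus lost across all genes and not in the members alone.

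Mrps21 had the most negative log2 fold change at E13.5 and was thus at opposite ends at the 2 ages. It had 25.8, 27.5 and 26.3 CPM in RarαDN-expressing ENCDC, against 53.2, 86.2, 80.2 and 57.9 CPM in control ENCDC. The RarαDN libraries were close to each other and below every control (log2FC -1.38, SE 0.25, edgeR adjusted p = 0.011). Without both hemoglobin-rich controls the log2 fold change was -1.04 (edgeR adjusted p = 0.077).

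Several large-subunit members with a bacterial homolog fell. Mrpl34, one of the smallest ribosomal proteins, had 157, 127 and 133 CPM in RarαDN-expressing ENCDC, against 255, 381, 438 and 264 CPM in controls (log2FC -1.27, SE 0.21, edgeR adjusted p = 0.009). Mrpl14, which lies at the interface of the subunits, had 51.7, 62.1 and 66.8 CPM in RarαDN, against 103, 187, 176 and 110 CPM in control ENCDC (log2FC -1.26, SE 0.25, edgeR adjusted p = 0.017). In both genes the groups did not overlap and controls 2 and 3 were the highest libraries. Mrpl33 had 99.8, 92.4 and 104 CPM in RarαDN and 157, 278, 276 and 192 CPM in control ENCDC (log2FC -1.19, SE 0.22, edgeR adjusted p = 0.012). Mrpl20, which binds ribosomal RNA early in assembly in bacteria, had 225, 225 and 220 CPM in RarαDN and 339, 527, 505 and 373 CPM in control ENCDC (log2FC -0.96, SE 0.17, edgeR adjusted p = 0.011). Mrpl33 and Mrpl20 also had no overlap between the groups. Mrpl12, the stalk protein that contacts translation factors, had 346, 336 and 278 CPM in RarαDN and 431, 605, 573 and 423 CPM in control ENCDC, and it fell less (log2FC -0.67, SE 0.17, edgeR adjusted p = 0.037).

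Large-subunit members without a bacterial homolog also fell. Mrpl53 had 84.5, 80.2 and 81.4 CPM in RarαDN-expressing ENCDC, against 156, 206, 267 and 159 CPM in controls (log2FC -1.26, SE 0.21, edgeR adjusted p = 0.009). Mrpl52 had 79.1, 58.2 and 75.7 CPM in RarαDN, against 112, 202, 221 and 145 CPM in control ENCDC (log2FC -1.26, SE 0.25, edgeR adjusted p = 0.016). Mrpl54 had 119, 124 and 121 CPM in RarαDN, against 206, 271, 298 and 212 CPM in control ENCDC (log2FC -1.02, SE 0.17, edgeR adjusted p = 0.009). In these 3 genes, too, every RarαDN library was below every control.

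Among small-subunit members, Mrps6 had 115, 126 and 118 CPM in RarαDN and 224, 387, 240 and 199 CPM in control ENCDC (log2FC -1.14, SE 0.23, edgeR adjusted p = 0.016). Exons of Mrps6 overlap those of the myo-inositol transporter gene Slc5a3 on the same strand, so reads of the 2 genes may have been split. Mrps16 had 63.7, 68.6 and 62.5 CPM in RarαDN and 86.4, 138, 161 and 120 CPM in control ENCDC, without overlap (log2FC -0.96, SE 0.22, edgeR adjusted p = 0.027). In all, exons of 25 members overlap another annotated gene and those of 15 overlap another gene of the table, 5 of these among the 26 that fell, and the sources name no strand-specific counting, so these counts are less certain.

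**Figure D2:**
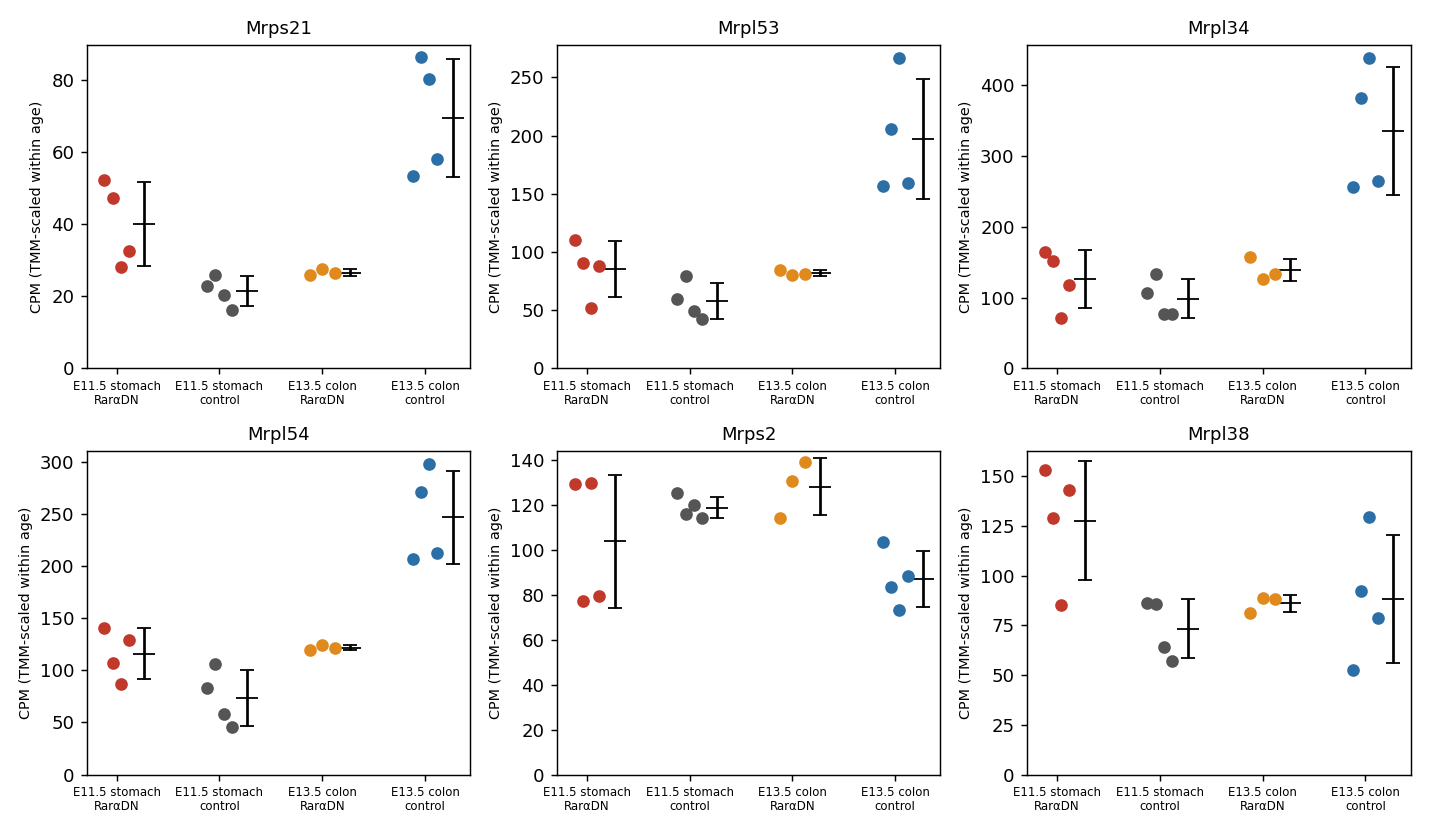
CPM of 6 members (vertical axes, from 0, TMM-scaled within age) in each library of the 4 groups on the horizontal axes; points are libraries and the bars beside them mean ± SD. Mrps21, Mrpl53, Mrpl34 and Mrpl54 have E13.5 RarαDN libraries below every control, Mrps2 has them above, and Mrpl38 has E13.5 groups that overlap.

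Counted by place in the ribosome, 16 of 49 large-subunit members fell at E13.5 (median log2FC -0.51) and 10 of 26 small-subunit members fell (median -0.65). By origin, 20 of 48 members with a bacterial homolog fell (median -0.56) and 6 of 28 without one fell (median -0.47). Of all genes tested at E13.5, 5.55% were called lower. The classes were not matched for transcript length, with which the calls ran (below). The difference between these classes was not tested. Mrps30 and Mrps18a carry small-subunit symbols but sit in the large subunit, and Mrps36 is now placed in the 2-oxoglutarate dehydrogenase complex. None of these 3 passed, with log2FC of -0.08 for Mrps30 (edgeR adjusted p = 0.832), -0.51 for Mrps18a (adjusted p = 0.124) and -0.74 for Mrps36 (SE 1.06, adjusted p = 0.740). Mrps18a, Mrps18b and Mrps18c derive from 1 bacterial protein and occupy different places. Of the 3 paralogs only Mrps18c was called, with 84.8, 75.5 and 69.6 CPM in RarαDN and 118, 174, 170 and 121 CPM in control ENCDC (log2FC -0.93, SE 0.20, edgeR adjusted p = 0.021), while Mrps18b was at -0.50 (SE 0.27, adjusted p = 0.306). The difference between paralogs was not tested.

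Members at the upper end of the E13.5 range did not pass the test. Mrps2, a counterpart of a bacterial small-subunit protein, had 114, 131 and 139 CPM in RarαDN-expressing ENCDC, against 103, 83.5, 73.2 and 88.6 CPM in control ENCDC. It was the 1 member in which all RarαDN libraries lay above all controls (log2FC 0.55, SE 0.18, edgeR adjusted p = 0.083; 0.64 and adjusted p = 0.048 without control library 1). Mrps27, a small-subunit protein of the pentatricopeptide repeat family, had a log2FC of 0.37 (edgeR adjusted p = 0.375) and Mrpl45, which lines the exit tunnel and faces the inner membrane, had 0.23 (adjusted p = 0.445). Mrps9, Mrpl3 and Mrpl10 had 0.14, 0.09 and 0.05, with edgeR adjusted p from 0.768 to 0.893. The abundant members Mrpl28 and Mrpl42 had log2FC of -0.57 (edgeR adjusted p = 0.078) and -0.47 (adjusted p = 0.081), and the rare Mrpl23 had -0.25 (SE 1.04, adjusted p = 0.920).

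**Figure D3:**
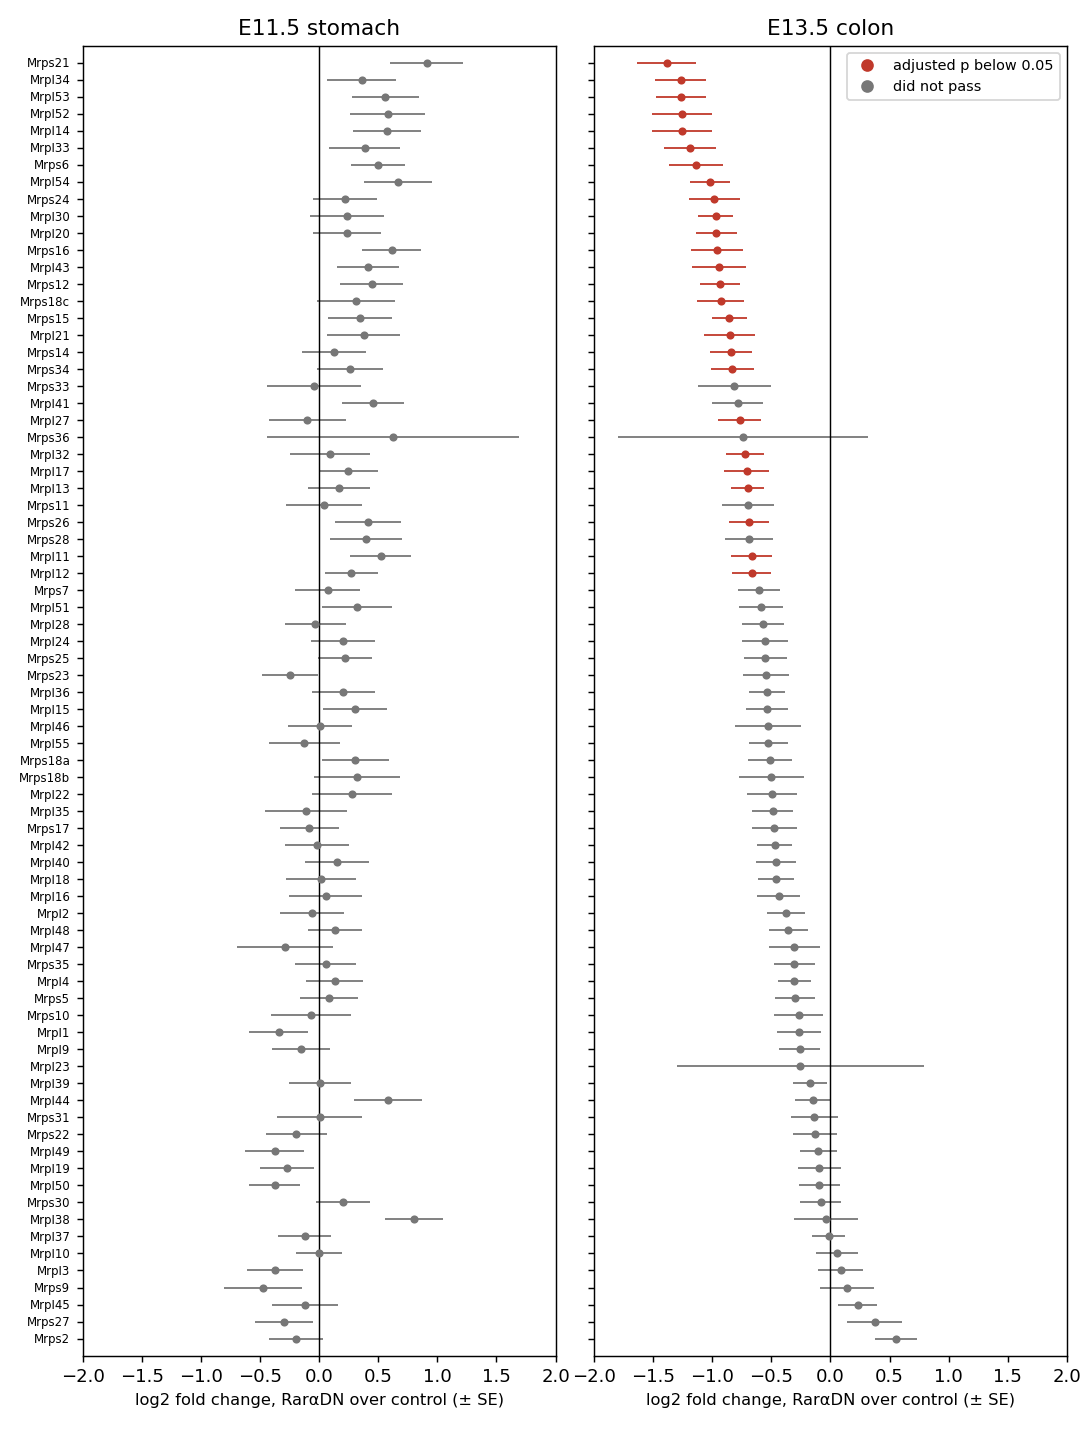
Log2 fold change of RarαDN over control ENCDC (horizontal axes, ± SE) for each of the 76 members, in the order of the E13.5 values, at E11.5 on the left and at E13.5 on the right. At E11.5 0 members pass an adjusted p of 0.05, and at E13.5 the 26 that pass are all negative; Mrpl23 was not tested at E11.5.

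All 15 libraries were then fitted together to compare the changes at the 2 ages. The E13.5 change minus the E11.5 change was called in 23 of 76 members, all negative, whereas 14.5% of 13412 genes were called, 7.2% with a negative and 7.34% with a positive difference. The median difference over the members was -0.80, against 0.12 for all genes, with 64 negative and 12 positive values (46.4% and 53.6% of all genes). Mrps21 had the largest difference at -2.35 (SE 0.40, edgeR adjusted p = 0.001), followed in order of p by Mrpl53 at -1.89 (adjusted p = 0.004), Mrps6 at -1.69 (adjusted p = 0.004), Mrpl54 at -1.74 (adjusted p = 0.005), Mrps16 at -1.63 (adjusted p = 0.005) and Mrpl14 at -1.89 (adjusted p = 0.006). Each of these 6 had a positive value at E11.5 that did not pass and a negative value at E13.5 that did. With the trend with transcript length removed, 19 members were called, 13 with a positive and 6 with a negative difference, and 4 of the 23 were among them. That fit called 10.9% of all genes. Of the 6 named, Mrps16 was still called (-1.62, edgeR adjusted p = 0.004), whereas Mrps21 was at -0.48 (adjusted p = 0.342), Mrpl53 at -0.24 (adjusted p = 0.588), Mrps6 at -0.21 (adjusted p = 0.545), Mrpl54 at -0.06 (adjusted p = 0.899) and Mrpl14 at -0.18 (adjusted p = 0.700). Without both hemoglobin-rich controls the difference was called in 6 members and in 6.59% of all genes. Leaving out single libraries gave 11 to 32 called members, with 13, 13 and 11 without E13.5 RarαDN library 1, 2 or 3, 13 and 14 without E13.5 control 2 or 3, and 15, 13 and 14 without E11.5 control 1, 3 or 4. Over all genes these fits called 8.62% to 17.6%.

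Read as signs, 51 of the 75 members measured at both ages were positive at E11.5 and negative at E13.5 (68%), as were 28.5% of 11644 genes. A further 18 members were negative at both ages, 6 were negative at E11.5 and positive at E13.5, and 0 were positive at both. Without E11.5 RarαDN library 1, 38 members were positive and 37 negative at E11.5. With the transcript length trend removed, the positive and negative counts were 19 and 56 at E11.5 and 45 and 31 at E13.5. Across members the values at the 2 ages had a Pearson's r of -0.68 and a Spearman's rho of -0.69 (n = 75), against a Pearson's r of -0.16 across all genes. Members share the same libraries and are not independent replicates, so these coefficients are descriptions.

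The members' changes ran with transcript length, and so did those of all genes. At E13.5 Spearman's rho between log2 fold change and length was 0.55 across the 76 members and 0.48 across 11887 genes. At E11.5 it was of the other sign, -0.42 across 75 members and -0.29 across 12226 genes. Members shorter than 1000 bases had a median log2FC of -0.93 at E13.5 and 16 of 25 fell, whereas the longer members had a median of -0.44 and 10 of 51 fell. In the shortest of 10 equal bins of length at E13.5, up to 1178 bases, the median log2 fold change was -0.80 for its 34 members and -0.78 for all 1190 genes, of which 31.9% were called lower. At E11.5 the median in the shortest bin was 0.31 for its 33 members and 0.33 for all 1224 genes. The members of the shortest bin thus lay close to all its genes by median at both ages, with no test made. This did not hold in the longer bins. The bins above 2507 bases at E13.5 held 1 to 6 members each. Their members had medians of -0.96 to -0.26, whereas all their genes had medians of 0.15 to 0.59. At E11.5 the bins above 2525 bases held 1 to 7 members each. Member medians there were -0.25 to 0.61, against -0.30 to -0.07 for all genes.

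**Figure D4:**
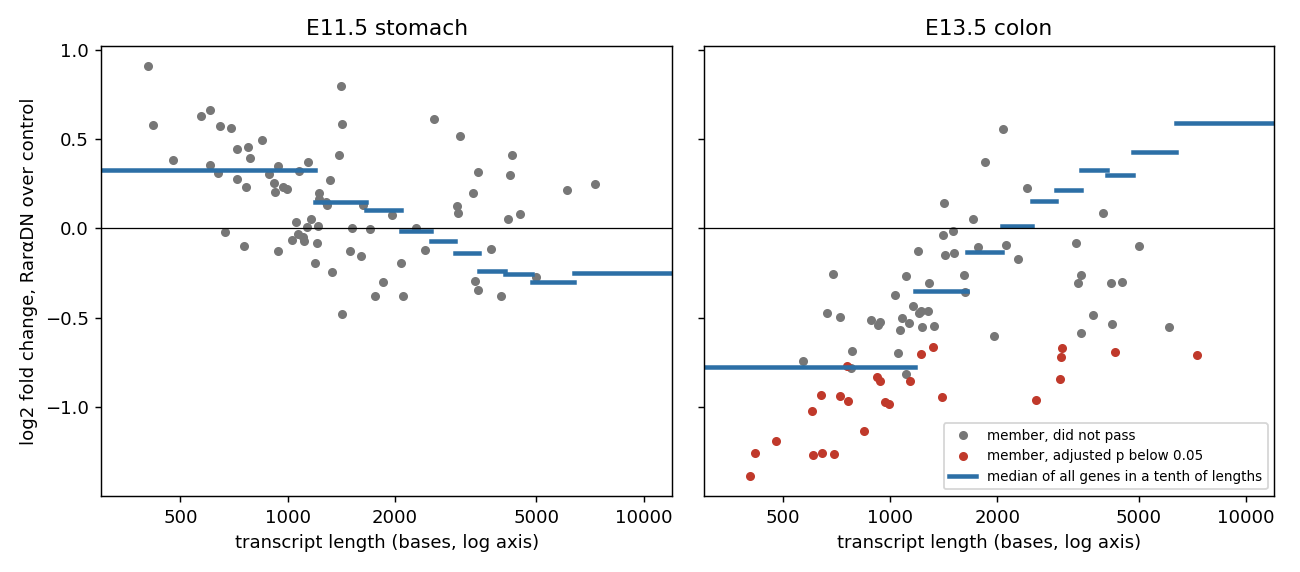
Log2 fold change of RarαDN over control ENCDC (vertical axis) against transcript length in bases (horizontal axis, log scale) for each member, at E11.5 on the left and E13.5 on the right; red points pass an adjusted p of 0.05 and blue lines give the median of all genes in each of 10 bins of length. At E13.5 the blue lines run from -0.78 in the shortest bin to 0.59 in the longest, and at E11.5 from 0.33 to -0.25.

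The same trend separated single libraries. As the median deviation of the shortest bin of genes minus that of the longest, on the log2 scale, the E13.5 RarαDN libraries were at -0.82, -0.71 and -1.11 and the controls at 0.33, 0.96, 0.83 and 0.14. The members' own median deviations were -0.25, -0.24 and -0.45 in RarαDN libraries and 0.13, 0.43, 0.38 and 0.03 in controls, in which controls 2 and 3 again were the highest. At E11.5 RarαDN library 1 had 1.51, against -0.12, -0.18 and 0.13 in the other RarαDN libraries and -0.14, 0.42, -0.80 and -1.08 in controls. That library also had the highest summed level of members.

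When the trend with transcript length was removed from each library before the fit, the median log2 fold change of the members at E13.5 was 0.07, with 45 positive and 31 negative values. Then 2.44% of 11887 genes were called. Among the members 5 fell and 1 rose, and 4 of the 26 were still called: Mrpl17, Mrpl32, Mrps14 and Mrps26. The fifth that fell was Mrps25, and Mrpl42 rose. The log2 fold changes of the 4 were -1.31 for Mrpl17 (edgeR adjusted p = 0.030), -0.85 for Mrpl32 (adjusted p = 0.031), -0.97 for Mrps14 (adjusted p = 0.035) and -1.01 for Mrps26 (adjusted p = 0.035). Their annotated transcripts are 2999 to 7300 bases long but their coding parts only 384 to 600 bases. With coding length in place of transcript length at E13.5, 3.97% of all genes were called and the members' median was -0.10. Among the members only Mrps15 fell (log2FC -0.55, edgeR adjusted p = 0.037) and only Mrps2 rose (0.79, adjusted p = 0.046). At E11.5 the median was -0.20 without the transcript length trend. Of all genes 8% were then called, and 4 members, Mrpl28, Mrpl37, Mrpl42 and Mrps17, were called lower. These genes were named after their values were seen. For Mrps21 the E13.5 value was -0.13 (edgeR adjusted p = 0.779) without the transcript length trend and -0.43 (adjusted p = 0.236) without the coding length trend.

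**Figure D5:**
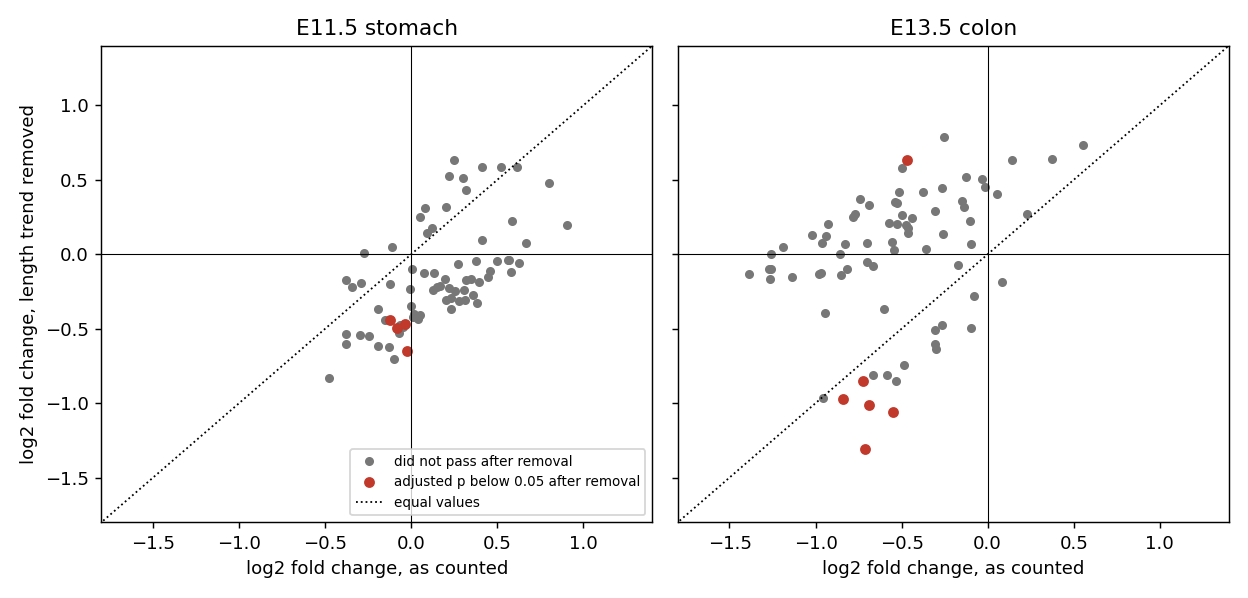
Log2 fold change of each member with the trend with transcript length removed (vertical axis) against its value as counted (horizontal axis), at E11.5 on the left and E13.5 on the right; red points pass an adjusted p of 0.05 after removal and the dotted line marks equal values. After removal the members have a median of 0.07 at E13.5, against -0.54 as counted, and of -0.20 at E11.5, against 0.15 as counted.

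Other housekeeping genes were read from lists by symbol. At E13.5, 38 of 76 cytosolic ribosomal protein genes fell (median log2FC -1.03), 48 of 76 nuclear genes of oxidative phosphorylation fell and 1 rose (median -0.98), and 8 of 35 proteasome subunit genes fell (median -0.21). Over all genes, 5.55% were called lower and 2.78% higher at E13.5. At E11.5 the median log2 fold changes of these lists were 0.48, 0.27 and 0.04. There 1 gene was called, of oxidative phosphorylation and lower, against 6% of all genes. The mitochondrial ribosomal protein genes, at -0.54 and 0.15, thus lay between the proteasome genes and the other lists at both ages, and the differences between lists were not tested.

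The remaining genes of mitochondrial translation were read from lists by function. Of 6 further mitochondrial ribosomal proteins, 3 fell at E13.5 (median log2FC -0.58), against 5.55% of all genes called lower. Chchd1, a small-subunit protein, had 160 ± 13.9 CPM in RarαDN (SD, n = 3) and 360 ± 82.9 CPM in control ENCDC (SD, n = 4; log2FC -1.17, SE 0.19, edgeR adjusted p = 0.009). Aurkaip1, also of the small subunit, and Ict1, a large-subunit protein that can release stalled peptides, fell too, by 0.97 (edgeR adjusted p = 0.012) and 0.73 (adjusted p = 0.041) on the log2 scale. Over 22 settings, including the main one, the E13.5 values ran from -1.27 to -0.01 for Chchd1 and from -1.07 to -0.27 for Aurkaip1. For Ict1 they ran from -0.82 to 0.32, and none of the 3 passed in every setting. Ptcd3, a small-subunit protein of the pentatricopeptide repeat family, differed between the ages the other way (-0.92 at E11.5 and 0.66 at E13.5, interaction 1.53, edgeR adjusted p = 0.027), though neither age passed alone. RarαDN library 1 stood apart at E11.5, and without it the E11.5 value was -1.43 and passed (edgeR adjusted p = 0.001). The difference between ages was not called without both hemoglobin-rich controls (1.26, edgeR adjusted p = 0.138) or with the coding length trend removed (1.03, adjusted p = 0.154). Dap3, a GTP-binding protein of the small subunit, was at 0.28 for E11.5 and -0.16 for E13.5 and passed at neither age.

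Of 13 mitochondrial translation factors, 0 were called at either age by edgeR (medians -0.16 at E11.5 and -0.04 at E13.5), with 1 and 3 at an unadjusted p below 0.05. Such a p was also found in 2407 of 12427 genes at E11.5 and 2855 of 12085 at E13.5. Guf1, a translational GTPase, was at -0.77 at E11.5 (edgeR adjusted p = 0.068) and 0.49 at E13.5 (adjusted p = 0.311), with an interaction of 1.20 (adjusted p = 0.025). Gfm1, an elongation factor, and Gfm2, a factor of ribosome recycling, had -0.38 and -0.56 for E11.5, and 0.32 and 0.97 for E13.5. Of 17 mitochondrial aminoacyl-tRNA synthetases, 1 fell at E13.5, Fars2 for phenylalanine (log2FC -0.92, edgeR adjusted p = 0.041), with medians of -0.25 at E11.5 and 0.00 at E13.5. Over all genes, 5.55% were called lower at E13.5, which is near 1 in 17.

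Of 22 mitoribosome assembly factors, 1 fell at E13.5, Malsu1 (listed as 2410003K15Rik; log2FC -0.87, edgeR adjusted p = 0.0497), with medians of -0.10 and 0.09 at E11.5 and E13.5. A single call in a list of this size is near the 5.55% of all genes called lower at E13.5. Gtpbp10, a GTPase of large-subunit assembly, differed between the ages by 1.61 (edgeR adjusted p = 0.025). Of 14 genes of mitochondrial transcription and RNA processing, 2 fell at E13.5: Slirp (listed as 1810035L17Rik), an RNA-binding protein, by 1.23 (edgeR adjusted p = 0.009) and Hsd17b10, a subunit of mitochondrial RNase P, by 0.76 (adjusted p = 0.042) on the log2 scale. Over 22 settings the E13.5 values ran from -1.33 to -0.41 for Slirp and from -0.89 to 0.10 for Hsd17b10. Neither gene passed in every setting. Slirp's partner Lrpprc was at -0.79 at E11.5 (edgeR adjusted p = 0.097) and 0.50 at E13.5 (adjusted p = 0.312). The medians of this list were -0.36 at E11.5 and 0.42 at E13.5, each opposite in sign to the members' median.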

How the data were processed

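RNA-seq of sorted mouse ENCDC gave 15 libraries in 4 groups, which were taken from the sample labels. Per the labels and the study's methods, cDNA was made with the SMART method, libraries with Nextera XT, and reads of repeated sequencing runs were combined and mapped with RUM. The authors deposited raw counts for each RefSeq transcript, and the sources used here give neither build nor annotation version. The authors' log2 values, quantile-normalized in 15 columns, were not used. The deposited comparisons, with log2 fold changes and adjusted p-values of edgeR, were not used either.

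After a filter on low counts (filterByExpr) and TMM scaling, all genes were fitted by edgeR 4.0.16 (quasi-likelihood, robust; R 4.3.3), with Benjamini-Hochberg adjustment and a threshold of 0.05. Each age was fitted alone, and the ages were compared by an interaction term over 4 groups. The SE is the absolute log2 fold change divided by the square root of F. The length trend was a loess of span 0.5 for each library. Alternatives were limma 3.58.1 (voom), DESeq2 1.42.0, other scalings, filters and thresholds, a replicate block, and fits without single libraries; removal of the coding length trend was added after seeing the data. The edgeR test was tested on simulated counts. Figures were drawn with matplotlib 3.10.9.

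The members, gene lists and tests were chosen with earlier results of these data known. Named with values were the 6 members with the largest positive and the 6 with the largest negative log2 fold change at each age, the 6 with the lowest p for the difference between ages, the 3 of highest and 3 of lowest CPM per kb, the Mrps18 paralogs, Mrps30, Mrps36, Mrpl12, and, from up to 3 genes of lowest p for each other list and age, those that bear on its result; 1 such gene is not reported here.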

Additional observations from a re-analysis of the deposited data

Results flagged for a closer look

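Of 171 groups of 4 libraries examined, 12 held a library far from the other 3 by Dixon's ratio, and chance alone gives about 1 in 20 groups. The libraries of a group share their depth and scaling, so genes do not give independent counts.

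RarαDN library 1 at E11.5 stood apart in the summed members, at 10955 CPM against 6688 to 7166 CPM in the other RarαDN libraries. It also stood apart in Mrpl12 (299 CPM, others 218 to 230), Mrpl20 (248 CPM, others 124 to 141), Mrpl42 (258 CPM, others 141 to 159) and the rare Mrpl23 (1.97 CPM, others 0.587 to 0.807). Outside the members it was the highest in Aurkaip1 (197 CPM, others 122 to 130), Ptcd3 (248 CPM, others 79.1 to 94.9) and Rars2, an arginyl-tRNA synthetase (124 CPM, others 52.1 to 62.5).

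Among E13.5 controls, Mrps9 had 128 CPM in library 1 against 73.2 to 82.2 CPM in the others, Mrpl1 had 100.2 CPM in library 3 against 77.2 to 80.5 CPM, and Mrpl50 had 107 CPM in library 2 against 146 to 152 CPM. Gfm2 had 52.9 CPM in control library 4 against 16.3 to 22.1 CPM.

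The change at E13.5 minus that at E11.5 passed edgeR's interaction test in 20 of the 56 genes examined, against 14.5% of all 13412 genes tested. The 56 genes were picked partly by this same p and by their fold changes, so a higher share was built in. Among members the differences in log2 fold change were -2.35 for Mrps21, -1.90 for Mrpl52, -1.89 for Mrpl14, -1.89 for Mrpl53, -1.74 for Mrpl54, -1.69 for Mrps6, -1.69 for Mrpl34, -1.63 for Mrps16, -1.63 for Mrpl33, -1.30 for Mrps18c, -1.25 for Mrpl20 and -0.997 for Mrpl12. In the other lists they were -1.59 for Slirp (1810035L17Rik), -1.57 for Aurkaip1, -1.42 for Chchd1 and -1.03 for Hsd17b10, and they were positive for Gtpbp10 (1.61), Ptcd3 (1.53), Lrpprc (1.24) and Guf1 (1.20).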

How the results depend on the processing

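At E11.5 the number of called members was 0, and it was 1 with DESeq2, 1 with all 4 groups in 1 fit, 4 with the transcript length trend removed, 3 with the coding length trend removed, 1 at a threshold of 0.1, 2 at 0.2, and 0 to 1 when single libraries were left out. The shares of all genes called were 6%, and in the same order 11%, 7.31%, 8%, 7.9%, 9.49%, 15.3% and 2.57% to 9.06%. At E13.5 it was 26, and it was 15 with all 4 groups in 1 fit, 6 with the transcript length trend removed, 2 with the coding length trend removed, 6 without both hemoglobin-rich controls, 4 at a threshold of 0.01, 49 at 0.2, and 0 to 35 when single libraries were left out. The shares of all genes called were 8.33%, and in the same order 4.84%, 2.44%, 3.97%, 1.7%, 1.51%, 22.8% and 0.199% to 10.6%. For the difference between ages it was 23, all lower, and it was 19 with the transcript length trend removed (13 higher and 6 lower, 4 of them among the 23), 7 with the coding length trend removed (5 higher and 2 lower, 2 among the 23), 6 without both hemoglobin-rich controls, 8 at a threshold of 0.01, 39 at 0.2, and 11 to 32 when single libraries were left out. All genes were called at 14.5%, and in the same order at 10.9%, 12.4%, 6.59%, 5.54%, 32% and 8.62% to 17.6%. The members' median log2 fold change at E11.5 was -0.20 with the transcript length trend removed and -0.12 with the coding length trend removed. At E13.5 it was 0.074 and -0.10 with these removed, and -0.37 without both hemoglobin-rich controls. With the transcript length trend removed, the E13.5 value turned positive for Mrpl20 (0.079), Mrpl33 (0.048), Mrpl42 (0.63), Mrpl52 (0.0027), Mrpl54 (0.13), Mrps18c (0.20), Hsd17b10 (0.10) and Ict1 (0.32). So did the difference between ages for Mrpl20 (0.33), Mrpl28 (0.58), Mrpl33 (0.23), Mrpl34 (0.049), Mrpl42 (1.17), Mrps18c (0.39), Chchd1 (0.32) and Hsd17b10 (0.24), and, with the coding length trend removed, for Mrpl33 (0.059) and Mrpl42 (0.53). The cause of these changes was not tested.

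Nothing showed that replicate numbers pair the libraries. The correlations that follow cannot exclude it, since differently numbered libraries were not compared. Deviations of same-numbered libraries correlated at 0.24, -0.20, 0.07 and 0.10 at E11.5 and at 0.04, 0.04 and 0.05 at E13.5, and the labels give no shared litter or day. With a replicate block, 0 members were called at E11.5, 25 at E13.5 (21 of them among the 26) and 22 for the difference between ages, and the medians were 0.14 and -0.63 at E11.5 and E13.5. That block gave calls in 2.82%, 7.03% and 11.1% of all genes. Low counts limited Mrpl23 and Mrps36, whose SE exceeded 1 at E13.5.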
